A study of Homo sapiens with 10 samples.

Results

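The 38 genes described here act in homologous recombination, the Fanconi anaemia pathway, the replication checkpoint and mismatch repair. They were taken by symbol from the 23228 genes of the count table, and all 38 were among the 14761 genes with enough reads to be tested. RNA came from RD cells, a human rhabdomyosarcoma line, in 5 groups of 2 libraries. Cells transfected with NRAS siRNA 1 or NRAS siRNA 2 at 10 nM were set against cells given a nonspecific siRNA at 10 nM, all at 48 h. Cells given the ERK inhibitor SCH772984 at 300 nM were set against cells given DMSO, its vehicle, both at 24 h. All libraries came from 1 cell line, and nothing in the labels tells whether replicates were separate cultures. A p-value here therefore reflects library-to-library spread, possibly only technical.

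Homologous recombination repairs a broken chromosome by copying the intact sister: nucleases trim the ends, BRCA1, PALB2 and BRCA2 prepare the exposed strand for pairing, and motor proteins such as RAD54L help it invade the matching duplex. The Fanconi anaemia pathway acts where crosslinked strands block a replication fork: a core complex attaches ubiquitin to the FANCD2 and FANCI pair, which then directs nucleases and recombination to the lesion. The kinases ATR and CHEK1 hold the cell cycle while stalled forks are protected. Many of these genes are known to be transcribed mainly in cells that are replicating DNA, in part through E2F factors.

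Libraries held 23224063 to 30768970 reads assigned to genes, and the members had from 167 reads (FANCB, the least in any library) to 12117 (MSH6, the most). Values are CPM, reads of a gene scaled to a common library size, after TMM scaling, which adjusts for differences in library composition. NRAS itself differed by -2.27 on the log2 scale between the mean of both NRAS siRNAs and the nonspecific siRNA (SE 0.10, edgeR adjusted p = 6.34e-06). The ERK target DUSP6 differed by -4.61 between the ERK inhibitor and DMSO (SE 0.19, edgeR adjusted p = 9.63e-07). Of markers of the myogenic lineage, MYF5 had 0 reads in every library, MYOD1 0 to 5 and MYOG 0 to 3, while PAX3 had 258 to 393, DES 520 to 928, MEF2C 781 to 1374, CDH15 5 to 176 and PAX7 1 to 6, so that 4 of the 8 markers, the myogenic regulators MYOD1, MYOG and MYF5 among them, were at or near 0. Of markers of other cell types, PTPRC had 1 to 5 reads, PECAM1 0 to 4, CDH1 0 to 12 and EPCAM 39 to 77. The 2 nonspecific siRNA libraries stood apart from each other for several members, and so did the 2 DMSO libraries, in the opposite direction; the values are given with the results they touch.

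With the ERK inhibitor, 17 of the 38 repair genes were lower than in DMSO and 0 were higher (edgeR adjusted p under 0.05, a threshold used throughout). Of all genes tested, 28.0% passed in either direction, 14.8% being lower and 13.2% higher. At an unadjusted p under 0.05, 24 members were lower and 0 higher (20.9% of all genes were lower), and DESeq2 called 16 lower and 0 higher, with 13.8% of all genes lower. Log2 fold changes were negative for 32 members, with a median of -0.36 and a range of -0.98 to 0.35, against a median of 0.00 over all genes tested. For 30 members both inhibitor libraries lay below both DMSO libraries, as did 33.9% of all genes, and for 1, RAD50, both lay above, as did 32.8% of all genes. The count was sensitive to single libraries: it was 7 without ERK inhibitor replicate 1, 8 without DMSO replicate 2 and 11 without ERK inhibitor replicate 2, when 12.5%, 12.8% and 19.3% of all genes passed in either direction. EXO1, RAD54L, FANCA, FANCG, FANCD2 and FANCI passed in all 11 alternative analyses of this comparison, including each left-out library. FANCE passed in 2 of the 11, MSH6 in 6, CLSPN and RAD54B in 7, and the other 7 in 8 to 10. In RNA from a mass of cells, fewer cells in a cell cycle phase and less RNA per cell cannot be told apart.

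**Figure D1:**
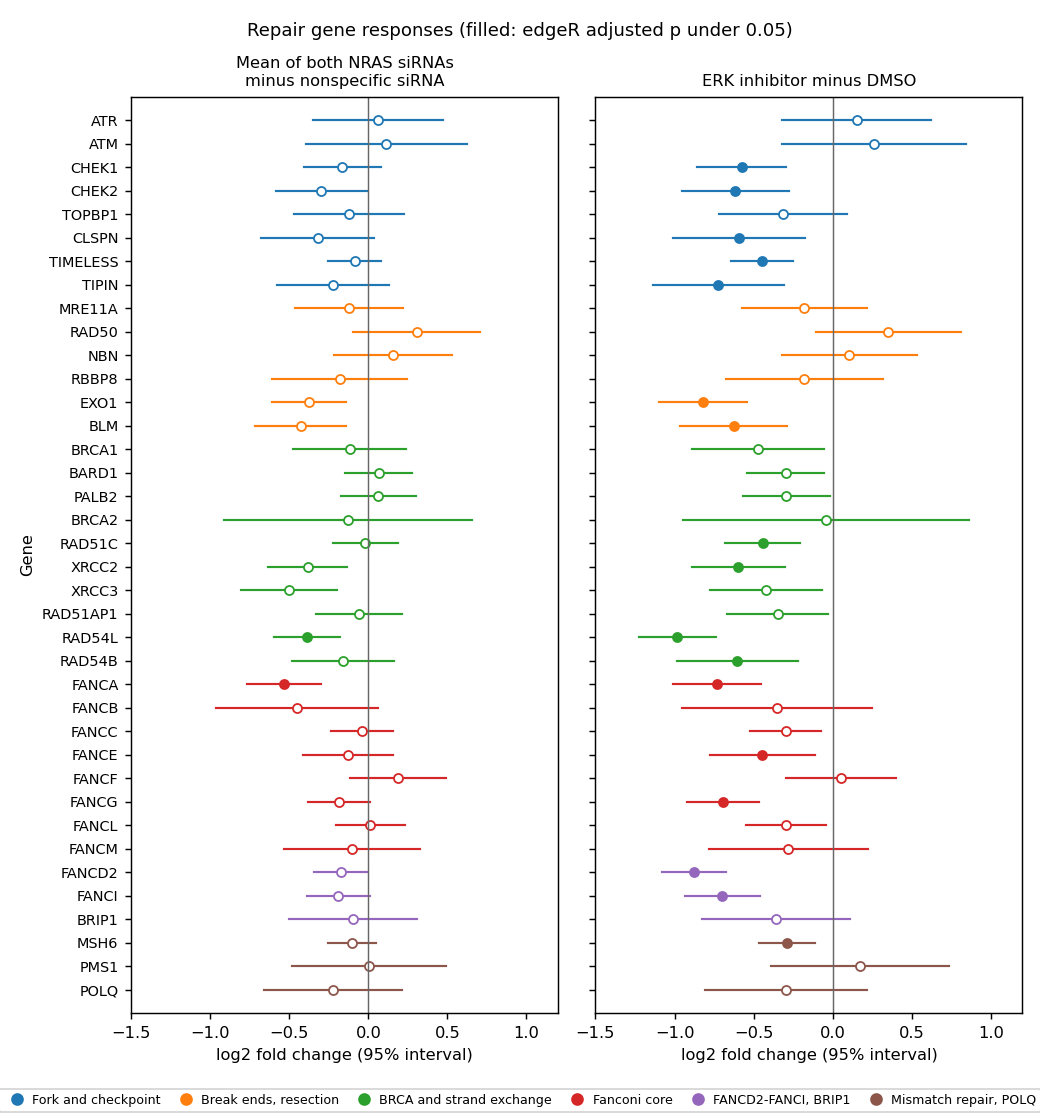
Log2 fold change (x axis) of each of the 38 genes (y axis, ordered by role) for the mean of both NRAS siRNAs minus the nonspecific siRNA (left) and the ERK inhibitor minus DMSO (right), with 95% intervals from the edgeR fit and filled points where the adjusted p was under 0.05. With the ERK inhibitor 17 points are filled and all lie left of 0; with the siRNAs FANCA and RAD54L are filled.

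Promoter sequences are shown for 6 members, 4 of which were lower with the ERK inhibitor and hold E2F-like letters near their start, 1 (FANCA) that was lower and holds none, and 1 (ATR) that was not called and holds none. They are from RefSeq on GRCh38.p14 and cover 250 bases before to 50 bases after the transcription start, 5′ to 3′ on the gene's strand. Capitals mark the letters searched, TTTGGCGC, TTTCGCGC, TTTCCCGC or GCGGGAA on either strand, of which every TTTCCCGC also holds the reverse complement of GCGGGAA. Of 20 promoters of members not called, 8 hold such letters, and none of these 8 is shown. RAD54L lies at chr1:46247438-46247737 on the plus strand, FANCD2 at chr3:10026187-10026486 on the plus strand, EXO1 at chr1:241847954-241848253 on the plus strand, FANCG at chr9:35079893-35080192 on the minus strand, FANCA at chr16:89816598-89816897 on the minus strand and ATR at chr3:142578684-142578983 on the minus strand.
RAD54L: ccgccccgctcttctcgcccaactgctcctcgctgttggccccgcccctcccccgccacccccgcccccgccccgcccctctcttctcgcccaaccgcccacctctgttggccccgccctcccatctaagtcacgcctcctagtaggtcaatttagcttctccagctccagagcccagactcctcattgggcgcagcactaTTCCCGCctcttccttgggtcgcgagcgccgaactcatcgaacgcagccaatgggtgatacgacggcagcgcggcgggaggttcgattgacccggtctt
FANCD2: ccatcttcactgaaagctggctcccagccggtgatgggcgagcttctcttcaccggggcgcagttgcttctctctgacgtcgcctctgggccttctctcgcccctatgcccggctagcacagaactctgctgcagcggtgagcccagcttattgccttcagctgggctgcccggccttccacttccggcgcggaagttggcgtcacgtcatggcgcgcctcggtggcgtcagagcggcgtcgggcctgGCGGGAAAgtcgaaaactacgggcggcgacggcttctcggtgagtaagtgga
EXO1: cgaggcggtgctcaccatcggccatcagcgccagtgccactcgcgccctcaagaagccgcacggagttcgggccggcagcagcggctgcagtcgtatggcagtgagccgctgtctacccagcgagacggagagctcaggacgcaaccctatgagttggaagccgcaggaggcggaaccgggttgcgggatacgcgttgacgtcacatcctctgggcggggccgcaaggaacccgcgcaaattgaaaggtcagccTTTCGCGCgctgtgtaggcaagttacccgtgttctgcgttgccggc
FANCG: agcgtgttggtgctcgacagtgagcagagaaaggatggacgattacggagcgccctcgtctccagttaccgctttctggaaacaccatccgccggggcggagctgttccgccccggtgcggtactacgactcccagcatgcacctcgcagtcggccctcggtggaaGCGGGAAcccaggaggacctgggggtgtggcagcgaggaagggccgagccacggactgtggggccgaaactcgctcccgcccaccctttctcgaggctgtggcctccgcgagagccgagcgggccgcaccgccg
FANCA: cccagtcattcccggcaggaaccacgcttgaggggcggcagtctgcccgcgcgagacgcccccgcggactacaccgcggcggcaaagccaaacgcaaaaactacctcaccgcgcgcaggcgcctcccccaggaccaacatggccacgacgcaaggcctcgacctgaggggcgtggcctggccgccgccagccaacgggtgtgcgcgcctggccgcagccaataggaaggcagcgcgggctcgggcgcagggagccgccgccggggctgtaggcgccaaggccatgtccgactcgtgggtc
ATR: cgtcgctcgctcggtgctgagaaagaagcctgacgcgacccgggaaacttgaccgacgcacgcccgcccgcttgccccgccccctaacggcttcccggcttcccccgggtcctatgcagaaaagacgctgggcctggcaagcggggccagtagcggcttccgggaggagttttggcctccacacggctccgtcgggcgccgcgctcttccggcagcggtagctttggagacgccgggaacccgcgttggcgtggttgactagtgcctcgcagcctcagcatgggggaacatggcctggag

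The first marked letters lie 49 bases before the start in RAD54L, 2 bases before it in FANCD2, 5 bases after it in EXO1 and 84 bases before it in FANCG. Of the 38 members 35 had an entry, NBN, RAD54B and FANCI having none. E2F-like letters stood in 17 of these 35 promoters (48.6%), in 2654 of 35116 promoters of all genes (7.56%) and in 1320 of 11107 promoters of the tested genes (11.9%). They stood in 9 of 15 members lower with the ERK inhibitor (60%) and in 8 of 20 members that were not called (40%). Other lists with known promoter classes were set beside them: 22 of 32 genes of the replication machinery (68.8%) and 3 of 19 mitosis genes (15.8%) held E2F-like letters. The letters TTTGAA, the cell cycle homology region of mitotic genes, stood in 4 of 35 members (11.4%) and in 12 of 19 mitosis genes (63.2%), against 15.2% of all promoters and 9.94% of the tested genes. The ETS letters CCGGAAG stood in 9 of 35 members (25.7%), against 18.2% of the tested genes. Split by the ERK inhibitor call, they stood in 2 of 15 members that were lower (13.3%) and 7 of 20 not called (35%), and TTTGAA in 0 of 15 and 4 of 20 (20%). The letters CACGTG stood in 4 of 35 members (11.4%), against 9.92% of the tested genes, and CCAAT in 18 of 35 (51.4%), against 36.4%. By the same split, CACGTG stood in 1 of 15 (6.67%) and 3 of 20 (15%), and CCAAT in 9 of 15 (60%) and 9 of 20 (45%). A match is a run of letters, counted on both strands, and does not show that a factor binds there.

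Among the checkpoint and fork genes, 5 of 8 were lower with the ERK inhibitor. CHEK1, the kinase through which ATR slows the cell cycle, had 36.7 and 41.7 CPM with the ERK inhibitor, against 58.0 and 59.0 CPM in DMSO. Both inhibitor libraries lay below both DMSO libraries, a log2 fold change of -0.58 (SE 0.13, edgeR adjusted p = 0.00836). CHEK2, the kinase that answers to ATM, differed by -0.62 (SE 0.15, edgeR adjusted p = 0.0146). CLSPN, which brings CHEK1 to ATR, differed by -0.59 (SE 0.19, edgeR adjusted p = 0.0402), and the partners TIMELESS and TIPIN, which travel with the fork, by -0.45 and -0.72 (SE 0.09 and 0.19, edgeR adjusted p = 0.00481 and 0.0171). ATR itself had 56.1 and 63.0 CPM with the ERK inhibitor, against 62.2 and 45.1 CPM in DMSO. These overlapped, with a log2 fold change of 0.15 and a 95% interval of -0.32 to 0.62, and the DMSO libraries lay further apart than the inhibitor libraries. ATM, at 115 and 117 CPM with the ERK inhibitor against 124 and 70.5 CPM in DMSO, showed the same overlap. TOPBP1, an activator of ATR, was not called (log2 fold change -0.31, edgeR adjusted p = 0.221).

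Of the genes for break ends and resection, EXO1 and BLM were lower and the MRE11A, RAD50 and NBN complex was not called. EXO1, a nuclease that extends the trimming of ends, had 28.9 and 31.2 CPM with the ERK inhibitor, against 54.4 and 51.8 CPM in DMSO. The groups stood well apart, at 56.6% of the DMSO level (log2 fold change -0.82, SE 0.12, edgeR adjusted p = 0.00121). BLM, a helicase that helps resection and takes joint molecules apart, differed by -0.63 (SE 0.15, edgeR adjusted p = 0.0136). MRE11A, the nuclease that starts the trimming, had 32.8 and 37.7 CPM with the ERK inhibitor, against 46.8 and 33.1 CPM in DMSO. Its groups overlapped (log2 fold change -0.18, 95% interval -0.57 to 0.22). RAD50, which holds the ends together, had 62.3 and 60.0 CPM with the ERK inhibitor, against 52.8 and 43.0 CPM in DMSO, and its log2 fold change of 0.35 did not pass (edgeR adjusted p = 0.23). NBN and RBBP8, the partner that starts resection, were at 0.10 and -0.18 and did not pass.

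Of the BRCA and strand exchange genes, 4 of 10 were lower and all 10 log2 fold changes were negative. RAD54L, the motor that helps the exposed strand invade the duplex, had 22.0 and 23.0 CPM with the ERK inhibitor, against 45.1 and 43.8 CPM in DMSO. It stood at 50.6% of the DMSO level (log2 fold change -0.98, SE 0.11, edgeR adjusted p = 0.000214). Its relative RAD54B and RAD51C and XRCC2, which both belong to complexes that assist strand exchange, were also lower, with log2 fold changes of -0.60, -0.44 and -0.60 (SE 0.17, 0.11 and 0.13, edgeR adjusted p = 0.0262, 0.0127 and 0.00838). XRCC3, which pairs with RAD51C, was at -0.42 and did not pass (edgeR adjusted p = 0.0729).

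The genes of BRCA1, BRCA2 and their direct partners did not pass. BRCA1, the scaffold that opens the way for resection, had 42.7 and 42.3 CPM with the ERK inhibitor, against 63.2 and 54.7 CPM in DMSO. Both inhibitor libraries lay below both DMSO libraries, but the log2 fold change of -0.47 (95% interval -0.89 to -0.05) did not pass after adjustment (edgeR adjusted p = 0.0864). BRCA2, which acts at the trimmed ends before strand exchange, had 18.98 and 22.0 CPM with the ERK inhibitor, against 25.5 and 16.7 CPM in DMSO. The interval of its log2 fold change, -0.95 to 0.86, spanned changes of nearly 1 unit either way, and its DMSO libraries lay further apart than the inhibitor libraries. RAD51AP1, a partner that stimulates strand invasion, had 50.6 and 53.03 CPM with the ERK inhibitor, against 67.9 and 63.9 CPM in DMSO, a log2 fold change of -0.35 that did not pass (edgeR adjusted p = 0.0968). PALB2, the bridge between BRCA1 and BRCA2, and BARD1, the partner of BRCA1, were at -0.29 and -0.30 (edgeR adjusted p = 0.101 and 0.0664).

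In the Fanconi anaemia pathway the target pair FANCD2 and FANCI, and FANCA, FANCE and FANCG of the core complex, were lower. FANCD2, the protein that receives the ubiquitin, had 51.6 and 51.9 CPM with the ERK inhibitor, against 97.3 and 92.8 CPM in DMSO, which is 54.4% of the DMSO level (log2 fold change -0.88, SE 0.09, edgeR adjusted p = 0.000131). Its partner FANCI differed by -0.70 (SE 0.11, edgeR adjusted p = 0.00121), while BRIP1, a helicase that binds BRCA1, was at -0.36 and did not pass. FANCA, a core scaffold, had 38.8 and 37.7 CPM with the ERK inhibitor, against 62.8 and 64.3 CPM in DMSO (log2 fold change -0.73, SE 0.12, edgeR adjusted p = 0.00227). FANCG, which binds FANCA, differed by -0.69 (SE 0.10, edgeR adjusted p = 0.0011). FANCE, which links the core to FANCD2, was lower (log2 fold change -0.44, edgeR adjusted p = 0.0494). The other 5 core genes, FANCB, FANCC, FANCF, FANCL and FANCM, were not called, and of these FANCF was above 0 (log2 fold change 0.05). Of the mismatch repair genes MSH6, which recognises mismatches, was lower (log2 fold change -0.29, SE 0.08, edgeR adjusted p = 0.0229), and PMS1 and the end-joining polymerase POLQ were not called.

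**Figure D2:**
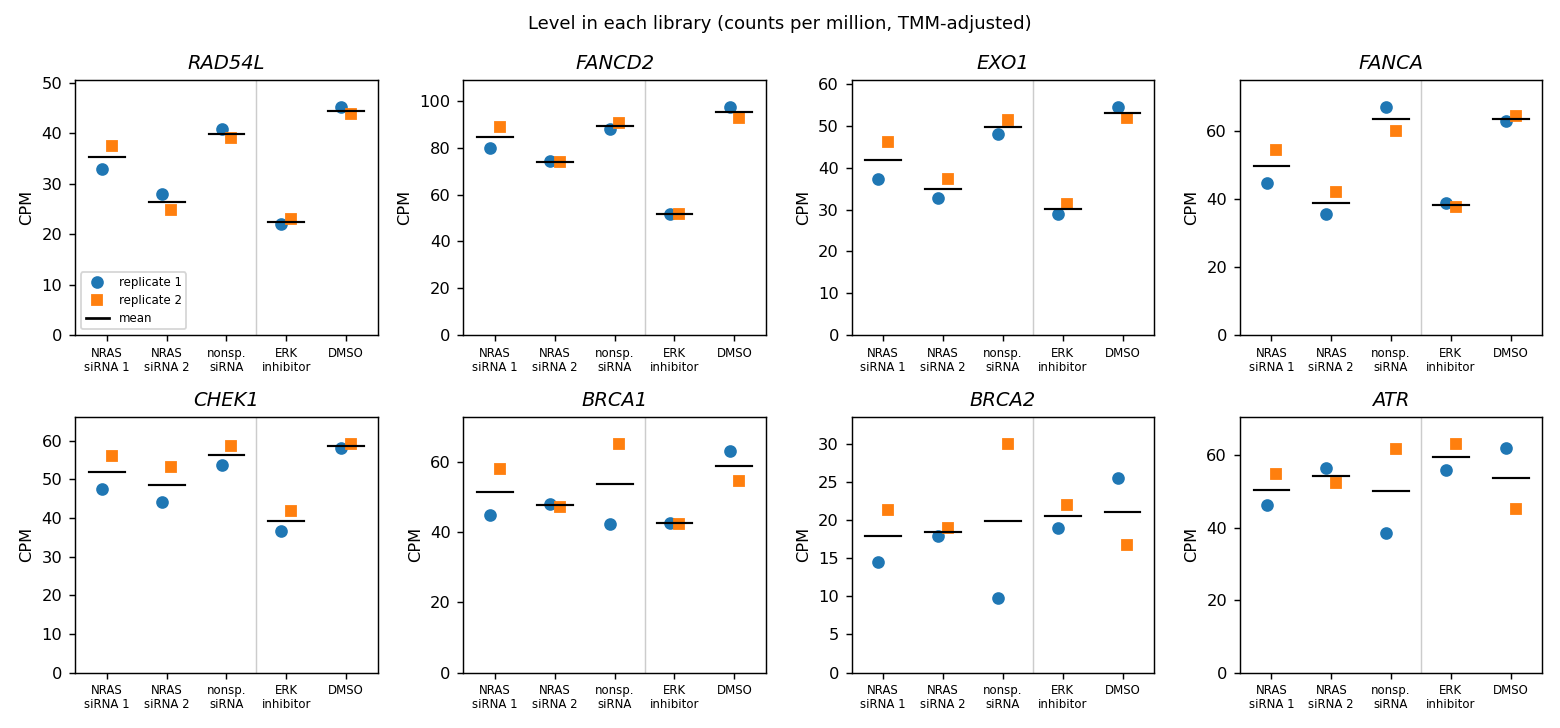
CPM in each library (y axis) for 8 of the genes, by group, with replicate 1 as circles, replicate 2 as squares and the mean as a line; a vertical line divides the siRNA groups from the inhibitor groups. For RAD54L and FANCD2 the replicates lie close together and the ERK inhibitor libraries stand well below DMSO, while for BRCA2 and ATR the replicates of the nonspecific siRNA and of DMSO differ by more than the groups do.

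Other genes of the same pathways, 81 of them tested, were taken from lists drawn up by function. Of these 28 were lower with the ERK inhibitor and 1 was higher, with a median log2 fold change of -0.20. UBE2T, the ubiquitin-conjugating enzyme of the Fanconi core, differed by -0.85 (SE 0.09, edgeR adjusted p = 0.000191), RAD18, which marks PCNA at stalled forks, by -0.89 (edgeR adjusted p = 0.00416) and MCM8, a helicase of recombination, by -0.64 (edgeR adjusted p = 0.00348). C17orf70, a core accessory protein, was higher by 0.60 (SE 0.17, edgeR adjusted p = 0.0287). Break signalling, 1 of these lists, had 3 of 12 lower. Of neighbouring repair lists, end joining had 4 of 12 lower, other mismatch repair genes 1 of 5 and excision repair 6 of 28 lower with 1 higher, while the replication machinery had 29 of 38 lower and mitosis genes 19 of 25. The medians of the last 2 lists were -0.55 and -0.62. The part of these lists' shift in the members' results was not tested.

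**Figure D3:**
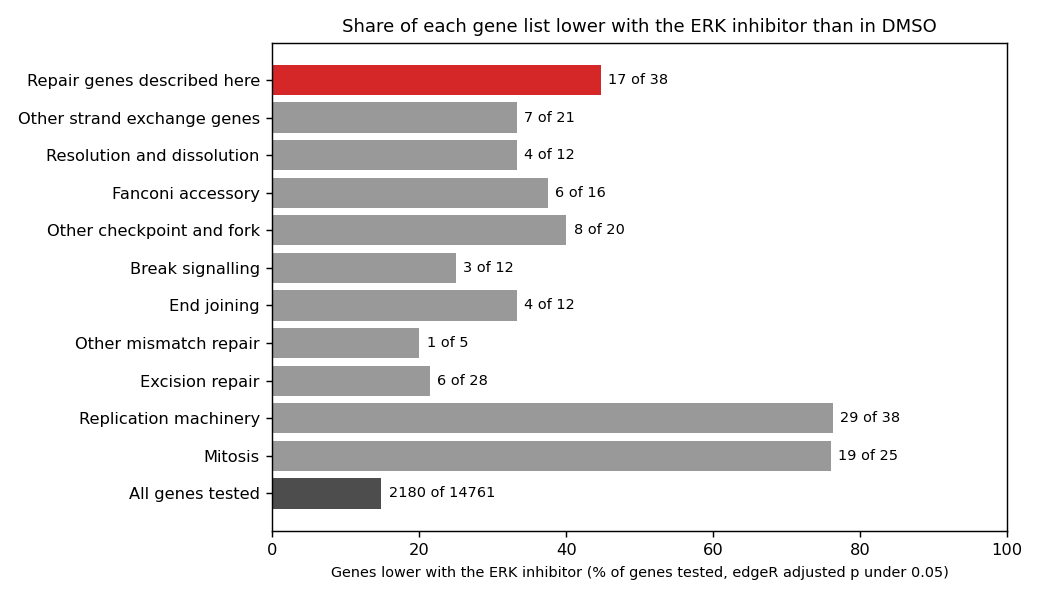
Share of each gene list lower with the ERK inhibitor than in DMSO (bars, percent of genes tested, edgeR adjusted p under 0.05), with the counts at each bar. The 38 repair genes stand at 44.7%, between all genes tested at 14.8% and the replication machinery at 76.3%.

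After NRAS knockdown, FANCA and RAD54L were lower and 0 members were higher in the mean of both siRNAs, that is 2 of 38, or 5.26%, against 4.99% of all genes lower and 2.97% higher. By edgeR this share lies near the background. At an unadjusted p under 0.05, 8 members were lower and 0 higher, against 15.2% of all genes lower. DESeq2 called 6 members lower, when 7.07% of all genes were lower. FANCA had 44.6 and 54.6 CPM with NRAS siRNA 1 and 35.5 and 42.0 CPM with NRAS siRNA 2, against 67.0 and 60.0 CPM with the nonspecific siRNA (log2 fold change -0.54, SE 0.11, edgeR adjusted p = 0.0177). All 4 knockdown libraries lay below both control libraries, as they did for 7 of the 38 members and for 19.3% of all genes. RAD54L had 33.0 and 37.5 CPM with NRAS siRNA 1 and 27.9 and 24.8 CPM with NRAS siRNA 2, against 40.8 and 39.0 CPM with the nonspecific siRNA (log2 fold change -0.39, SE 0.09, edgeR adjusted p = 0.0348). Just outside the threshold stood XRCC3 (edgeR adjusted p = 0.0508), EXO1 (0.0545), XRCC2 (0.0623) and BLM (0.0696). Of the 81 other pathway genes, 6 were lower and 1 was higher. Among the lower were RECQL4, a helicase of replication and repair (log2 fold change -0.90, SE 0.15, edgeR adjusted p = 0.0113), and TONSL, which acts at stalled forks (-0.84, SE 0.19, edgeR adjusted p = 0.0273). TP53BP1, which shields break ends from resection, was higher (log2 fold change 0.30, SE 0.08, edgeR adjusted p = 0.0488). The replication machinery had 8 of 38 genes lower and mitosis genes 2 of 25.

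The siRNA calls depended on single libraries. The count of members was 0 without nonspecific siRNA replicate 1, 0 without NRAS siRNA 1 replicate 1, 0 without NRAS siRNA 2 replicate 1, 1 without nonspecific siRNA replicate 2 and 4 without NRAS siRNA 1 replicate 2. The share of all genes past the threshold, 7.95% with every library, was 0.87%, 2.67%, 2.51%, 2.67% and 5.96% in the same order. The count was also 0 when only the groups compared entered the fit, with 2.93% of all genes past the threshold. The members' median log2 fold change, -0.13, was -0.26 without nonspecific siRNA replicate 1 and 0.02 without nonspecific siRNA replicate 2. Taken separately, NRAS siRNA 1 had 0 members past the threshold by DESeq2, when 5.41% of all genes passed. By edgeR it also had 0, when 2.07% of all genes passed. At an unadjusted p under 0.05, 3 members and 17.5% of all genes passed. NRAS siRNA 2 had 4 lower: EXO1, XRCC3, RAD54L and FANCA, with log2 fold changes of -0.51, -0.72, -0.60 and -0.71 (edgeR adjusted p = 0.0411, 0.0303, 0.017 and 0.0141), and 0 higher; 3.84% of all genes were lower and 2.59% higher. Both NRAS siRNA 1 libraries lay below both nonspecific siRNA libraries for 7 members, EXO1, BLM, XRCC2, XRCC3, RAD54L, FANCA and FANCG, as they did for 25.5% of all genes. Both NRAS siRNA 2 libraries did so for 17 members, against 29.1% of all genes, and lay above for 1, RAD50, against 26.4%. The count of members past the threshold with NRAS siRNA 2 was 0 without nonspecific siRNA replicate 1 and 0 without NRAS siRNA 2 replicate 1, when 0.864% and 0.352% of all genes passed. Without nonspecific siRNA replicate 2 it was 3, with RAD54L and FANCA lower and RAD50 higher (log2 fold change 0.86, edgeR adjusted p = 0.0419). The 2 siRNAs were also compared directly, and 0 members differed between them by DESeq2, when 1.15% of all genes passed. By edgeR 0 members differed, when 0.427% of all genes passed. At an unadjusted p under 0.05, 5 members and 5.97% of all genes differed, and all 5 members were higher with NRAS siRNA 1. The log2 difference of siRNA 1 from siRNA 2 was positive for 29 of 38 members (median 0.09), against 7269 of 14761 genes (median 0.00). For the replication machinery it was positive for 37 of 38 (median 0.24). Both siRNA comparisons share the nonspecific siRNA libraries. The 2 kinds of control differed in 0 members by DESeq2, when 3% of all genes passed, and in 0 by edgeR, when 0.379% passed. At an unadjusted p under 0.05, 2 members, BARD1 and MSH6, and 11.6% of all genes differed.

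FANCD2, CHEK1, BRCA1, BRCA2, RAD51AP1, ATR and MRE11A were not called with either siRNA. CHEK1 had 47.5 and 56.1 CPM with NRAS siRNA 1 and 44.0 and 53.2 CPM with NRAS siRNA 2, against 53.8 and 58.7 CPM with the nonspecific siRNA. The NRAS siRNA 1 libraries overlapped the controls, and both NRAS siRNA 2 libraries lay below both. BRCA1 had 44.9 and 57.9 CPM with NRAS siRNA 1 and 48.2 and 47.1 CPM with NRAS siRNA 2, against 42.3 and 65.1 CPM with the nonspecific siRNA. All 4 knockdown values lay between the 2 control values. BRCA2 had 14.5 and 21.4 CPM with NRAS siRNA 1 and 17.9 and 18.97 CPM with NRAS siRNA 2, against 9.81 and 29.9 CPM with the nonspecific siRNA, and lay between the controls too. RAD51AP1 had 59.4 and 70.5 CPM with NRAS siRNA 1 and 59.6 and 64.2 CPM with NRAS siRNA 2, against 56.0 and 76.1 CPM with the nonspecific siRNA. FANCD2 had 79.8 and 89.0 CPM with NRAS siRNA 1 and 74.4 and 73.7 CPM with NRAS siRNA 2, against 87.8 and 90.5 CPM with the nonspecific siRNA (log2 fold change of the mean -0.17, 95% interval -0.34 to -0.0022, edgeR adjusted p = 0.183). EXO1 had 37.3 and 46.2 CPM with NRAS siRNA 1 and 32.7 and 37.3 CPM with NRAS siRNA 2, against 48.0 and 51.3 CPM with the nonspecific siRNA. All 4 knockdown values of EXO1 lay below both controls, as was so for 19.3% of all genes. ATR had 46.2 and 54.9 CPM with NRAS siRNA 1 and 56.6 and 52.3 CPM with NRAS siRNA 2, against 38.6 and 61.9 CPM with the nonspecific siRNA. MRE11A had 32.9 and 35.6 CPM with NRAS siRNA 1 and 35.9 and 30.7 CPM with NRAS siRNA 2, against 32.3 and 41.2 CPM with the nonspecific siRNA. For both genes the groups overlapped.

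The knockdown and inhibitor responses were set against each other by testing their difference, that of the siRNAs (their mean) minus that of the ERK inhibitor, in the same fit. FANCD2 differed by 0.70 (SE 0.12, edgeR adjusted p = 0.00956) and RAD54L by 0.60 (SE 0.14, edgeR adjusted p = 0.0368), the inhibitor response being the more negative in both. Of all genes tested, 2.73% had a higher siRNA response by this test and 4.57% a lower one, and 0 members were among the lower. FANCG and FANCI stood just outside at 0.51 each (edgeR adjusted p = 0.0514 and 0.0556). FANCD2 passed in 16 of 16 alternatives and RAD54L in 8 of 16. FANCA, lower in both comparisons, had a difference of 0.20 with a 95% interval of -0.17 to 0.56. Across the 38 genes the 2 responses had Pearson's r of 0.738 and Spearman's rho of 0.723, against 0.541 and 0.451 over all 14761 genes. These are correlations across genes, which are not independent replicates, and the siRNA and inhibitor arms have separate control libraries. The arms also differed in time, 48 h against 24 h, and in the 4 genes kept as checks of NRAS and ERK activity. The median log2 fold change of these 4 was -1.21 with the siRNAs and -4.77 with the ERK inhibitor. In the difference of responses 3 of them were higher and 1 was lower. The part of this gap in the members' differences was not tested.

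**Figure D4:**
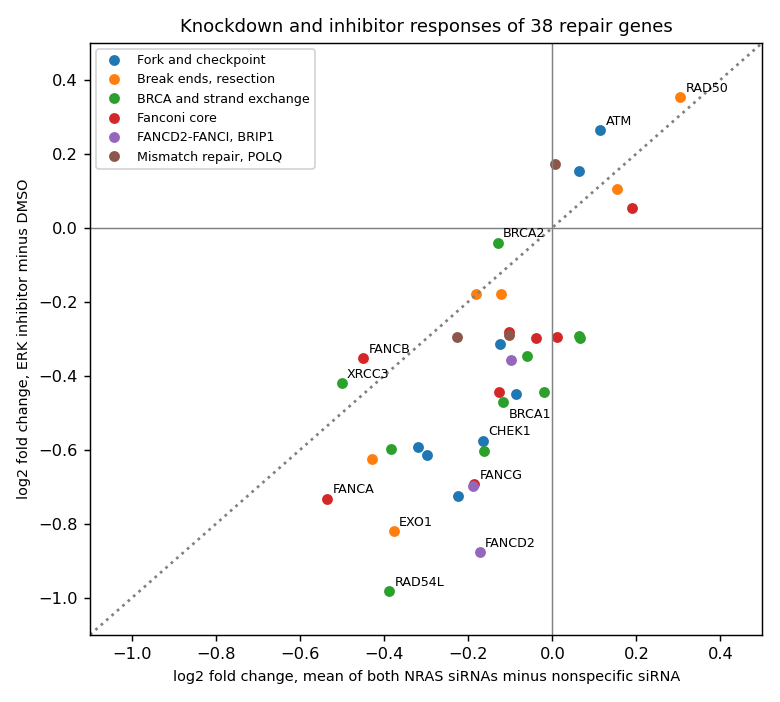
Log2 fold change of the 38 genes for the mean of both NRAS siRNAs minus the nonspecific siRNA (x axis) and the ERK inhibitor minus DMSO (y axis), coloured by role, with the dotted line marking equal values. FANCD2 and RAD54L lie well below the dotted line, and FANCA lies nearer to it.

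The gap between replicate control libraries went with transcript length and with the share of G and C bases among the members. BRCA2 had a 3.03-fold gap between the nonspecific siRNA libraries (9.81 and 29.9 CPM) and a 1.52-fold gap between the DMSO libraries, in opposite directions. ATM had gaps of 1.62 and 1.75-fold and ATR of 1.6 and 1.38-fold. Some shorter members had wide gaps too. In the nonspecific siRNA, FANCB (3.01 kb) had a 1.89-fold gap and RBBP8 (3.29 kb) a 1.73-fold gap. In DMSO, PMS1 (3.42 kb) had a 1.71-fold gap. The long MSH6 (7.48 kb) had gaps of only 1.08 and 1.01-fold. Over the 38 genes, the log2 ratio of replicate 2 to replicate 1 had r of 0.554 with the log2 length of the longest coding transcript in the nonspecific siRNA and -0.569 in DMSO, against 0.23 and -0.186 over 13445 genes with a length. With the share of G and C bases the values were -0.664 and 0.623, against -0.404 and 0.197 over the 13445 genes. Of 22 members with transcripts under 5 kb, 12 (54.5%) were lower with the ERK inhibitor, and of 16 with transcripts of 5 kb or more, 5 (31.2%), against 16% and 14.4% of all genes in those classes. The part of the replicate gap in the members' counts was not tested.

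**Figure D5:**
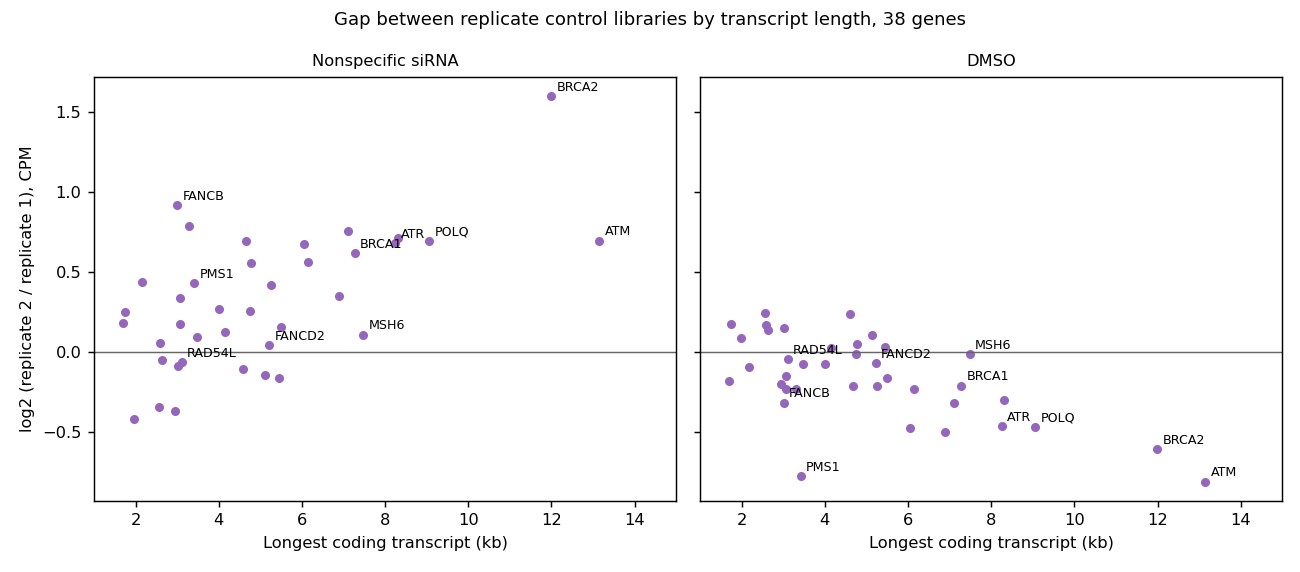
Log2 ratio of replicate 2 to replicate 1 in CPM (y axis) against the length of the longest coding transcript in kb (x axis) for each of the 38 genes, in the nonspecific siRNA libraries (left) and the DMSO libraries (right). Long genes such as BRCA2 and ATM lie above 0 on the left and below 0 on the right. The shorter FANCB and PMS1 do so too.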

How the data were processed

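The 38 members and the gene lists were chosen with earlier results of these data known. The authors deposited raw read counts for each gene symbol, made with TopHat2, SAMtools and HTSeq on hg19 and GRCh37 after bcl2fastq, per the submitters' processing notes. Tool versions, annotation and strand setting were not given in the sources used here. Reads of overlapping genes, antisense ones included, could therefore not be separated. The 5 category lines of the count table were left out. They made up 38.3 to 39.4% of the counts of a library, and reads with more than 1 alignment are missing from gene totals. No pair of replicates matched within sampling noise (chi-square 13.6 to 25.6 times its degrees of freedom).

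The test was edgeR's quasi-likelihood test (edgeR 4.0.16, R 4.3.3, TMM scaling, filterByExpr at a minimum count of 10, 1 fit of 10 libraries with 5 residual degrees of freedom, Benjamini-Hochberg over 14761 genes, threshold 0.05). At this depth 3 counts correspond to 0.0951 to 0.132 CPM. Alternatives were other scalings, filters, DESeq2 1.42.0, a replicate block, only the groups compared and each library left out. The analysis was tested on simulated counts, drawn with a common spread for all genes and independent libraries. Such a test cannot show how the calls fare under the replicate gaps seen here. Transcript lengths come from GENCODE 29 and promoters from RefSeq; positions of the files' own build are not given. Named genes were all 38 members, with values in every library for 7 of them fixed by name and for up to 4 members with the greatest change in each direction, and in each other list up to 3 genes past the threshold; some are not reported here. Of 88 other pathway genes listed, 84 were in the table and 81 were tested.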

Additional observations from a re-analysis of the deposited data

Results flagged for a closer look

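The difference between the mean siRNA response and the ERK inhibitor response passed the threshold in 2 members. FANCD2 differed by 0.704 on the log2 scale (SE 0.12, edgeR adjusted p = 0.00956), being at 54.4% of the DMSO level with the ERK inhibitor and at 88.7% of the nonspecific siRNA level in the mean of both siRNAs. RAD54L differed by 0.595 (SE 0.14, edgeR adjusted p = 0.0368), being at 50.6% of the DMSO level with the ERK inhibitor and at 76.4% of the nonspecific siRNA level with the siRNAs. The 4 check genes of NRAS and ERK activity also differed between the responses, with 3 higher and 1 lower.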

How the results depend on the processing

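Across other scalings, filters, DESeq2, only the groups compared and the replicate block, 10.1% to 20.1% of all genes were lower with the ERK inhibitor. The share was 14.8% in the main fit. The count of members lower with the ERK inhibitor, 17, was 16 to 20 under the same settings. With 1 library left out it was 7 to 14. For the mean of both siRNAs the count of 2 became 5 with no filter, 7 with the replicate block, 0 with only the groups compared and 6 with DESeq2, when 5.06%, 12%, 1.59% and 7.07% of all genes were lower, against 4.99% before; it was 0 to 4 with 1 library left out. For NRAS siRNA 2 the count of 4 became 9 with the replicate block and 0 with only the groups compared, when 11.2% and 0.711% of all genes were lower, against 3.84% before; it was 0 to 3 with 1 library left out, and without nonspecific siRNA replicate 2 RAD50 was among the 3, as higher. For the difference of responses the count of 2 became 8 with the replicate block and 4 with DESeq2, when 16.1% and 11.1% of all genes passed, and 1 to 2 with 1 library left out; only the groups compared means all groups there and was not run. NRAS siRNA 1, siRNA 1 against siRNA 2 and the nonspecific siRNA against DMSO had 0 members past the threshold under the settings that kept every library. The shares of all genes past it were 0.315% to 8.67%, 0.195% to 1.15% and 0.0849% to 3.02% in the same order. With 1 library left out, the members' median log2 fold change for NRAS siRNA 1 ranged from -0.20 to 0.08. For the difference of responses, the 8 members with the replicate block and the 4 with DESeq2 were all higher. Of all genes that passed there, 1019 of 2379 and 554 of 1511 were higher. The cause of the moves in these counts was not tested, and a lone library left in a group was taken to vary like the other groups. No member's log2 fold change that passed the threshold changed sign under any alternative run. The labels do not say that equal numbers pair the libraries. Deviations of equally numbered libraries correlated at -0.00938 (nonspecific siRNA and DMSO) to 0.605 (nonspecific siRNA and NRAS siRNA 1) over 14761 genes. With 2 libraries a group, the SE of the ERK inhibitor response reached 0.27 for FANCB and 0.41 for BRCA2. The intervals of these log2 fold changes from the edgeR fit were -0.95 to 0.25 for FANCB and -0.95 to 0.86 for BRCA2. Changes well above the SE could therefore not be told from 0 there.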

Other observations

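Of the other listed repair genes, 2 differed between the siRNAs. XRCC6, a Ku subunit of end joining, had 490 and 513 CPM with NRAS siRNA 1, against 303 and 319 CPM with NRAS siRNA 2 (log2 difference 0.69, SE 0.09, edgeR adjusted p = 0.0134). TDG, a glycosylase of base excision repair, had 38.6 and 46.1 CPM with NRAS siRNA 1, against 20.6 and 22.1 CPM with NRAS siRNA 2 (log2 difference 0.99, SE 0.13, edgeR adjusted p = 0.0111). XRCC4, a partner of DNA ligase in end joining, had 9.85 and 9.04 CPM with the ERK inhibitor, against 19.8 and 15.2 CPM in DMSO, and its siRNA and inhibitor responses differed by 1.32 (SE 0.24, edgeR adjusted p = 0.0129).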
